A study of Homo sapiens with 6 samples.

Results

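The ubiquitin-specific proteases (USPs) were examined in HCT-8 cells, an established human colorectal cancer line, after a plasmid carrying a hairpin against PNISR was introduced. Members were the protein-coding genes whose symbol is USP followed by a number, with or without a trailing letter, leaving out USP18, genes of chromosome Y and the USP17-like copies. Of the 60664 genes with deposited counts, 50 met this symbol rule, and the 45 with a count of 10 or more in at least 3 of the 6 libraries were retained. The libraries comprise 3 of cells given the control hairpin plasmid (shNC) and 3 of cells given the PNISR hairpin plasmid (shPNISR), all grown in the same serum-containing medium. No source used here says whether libraries of a group are separate cultures, so p-values describe the spread among these libraries, which may be technical. The labels name 1 cell line and 1 PNISR hairpin plasmid.

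USPs form the largest family of human deubiquitinases. They are cysteine proteases that remove ubiquitin from proteins or trim ubiquitin chains, and so oppose ubiquitin ligases and can spare a substrate from the proteasome. Individual members act on histones, DNA repair factors, endosomal cargo, mitochondria and ribosomes, and a few take part in splicing, where they act on or sit within the spliceosome's small nuclear ribonucleoproteins. PNISR encodes an arginine and serine rich nuclear protein, and the series asks about its part in alternative splicing. Only whole-gene counts were analysed here, so isoforms of USP genes were not compared.

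Total counts ranged from 15049485 to 17977803 per library. PNISR was at 55.3, 50.2 and 62.8 CPM (each count relative to the scaled total of its library) in shNC and at 18.5, 20.7 and 27.6 CPM in shPNISR, which leaves 39.7% of the shNC level (log2 fold change -1.33 ± 0.15 SE, adjusted p = 8.73e-05, edgeR's quasi-likelihood test). Across the 16102 genes tested, 371 were higher and 134 lower with shPNISR at an adjusted p of 0.05 (298 and 189 after adjustment of each library for GC content and exon length). One control library, shNC 2, stood apart from the others of its group. Its score on the first principal component (44.8% of the variance) was 0.79, beside -35.2 and -31.2 in shNC 1 and 3 and 16.9 to 24.6 in shPNISR. Members are therefore also given without it where the call differs. It was singled out after its position was seen, and it is the control nearest to shPNISR. Its omission thus tends to widen the difference between the groups, so calls made only without it are no separate support. Without it 2030 genes were called over the whole table, beside 505 with all libraries, and 6 of the 45 members, beside 1. Epithelial and intestinal markers summed to 4350.0 to 4960.0 CPM in shNC and 4850.0 to 6090.0 CPM in shPNISR, with 8 of 9 tested and 2 called higher (CDH17 and KRT19). The sums for markers of other cell types were lower. The 8 fibroblast markers summed to 16.9 to 25.4 CPM in shNC and 25.2 to 29.6 CPM in shPNISR. COL1A2 and FAP were at 0 counts. Most of this sum was COL1A1, at 13.75, 20.33 and 14.52 CPM in shNC and 24.81, 20.03 and 24.53 CPM in shPNISR. COL1A1 was at 0.52 ± 0.17 on the log2 scale, with overlapping groups (adjusted p = 0.0988, edgeR's quasi-likelihood test). Of the 5 fibroblast markers tested none was called, and 4 had a fitted value above 0 and 1 below. The 6 leukocyte markers summed to 3.04 to 4.13 CPM in shNC and 3.02 to 4.03 CPM in shPNISR. PTPRC was at 0 counts and LYZ was called lower. The 4 endothelial markers summed to 0.718 to 1.49 CPM in shNC and 1.41 to 1.66 CPM in shPNISR. The part of these markers in the results on USP genes was not tested.

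The family was expressed over a wide range of levels. Counts chose the members, so the order of levels is a description. Per kilobase of exon, USP22, which removes ubiquitin from histone H2B as part of the SAGA complex, was the highest in shNC at 69.0 ± 6.25 CPM per kilobase (mean ± SD, n = 3). USP5, which takes apart free ubiquitin chains, followed at 55.7 ± 2.18, then the spliceosomal protein USP39 at 35.4 ± 0.832, USP10 at 32.1 ± 1.80 and USP11 at 30.8 ± 5.76 CPM per kilobase. The lowest of those retained were USP51 at 0.574 ± 0.0930, USP49 at 0.705 ± 0.0251, USP44 at 1.01 ± 0.0773, USP15 at 1.25 ± 0.249 and USP53 at 1.42 ± 0.205 CPM per kilobase. USP22 was 120.0 times as high as USP51, and 14 members lay above 10 CPM per kilobase. In this order 36 of the 44 pairs of neighbours had overlapping shNC ranges, while USP22, USP5 and USP39 were each separated from the next gene. Exon length is the union of all annotated exons, which is long for USP15 (19.4 kb) and USP8 (20.6 kb) and lowers their values per kilobase.

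**Figure D1:**
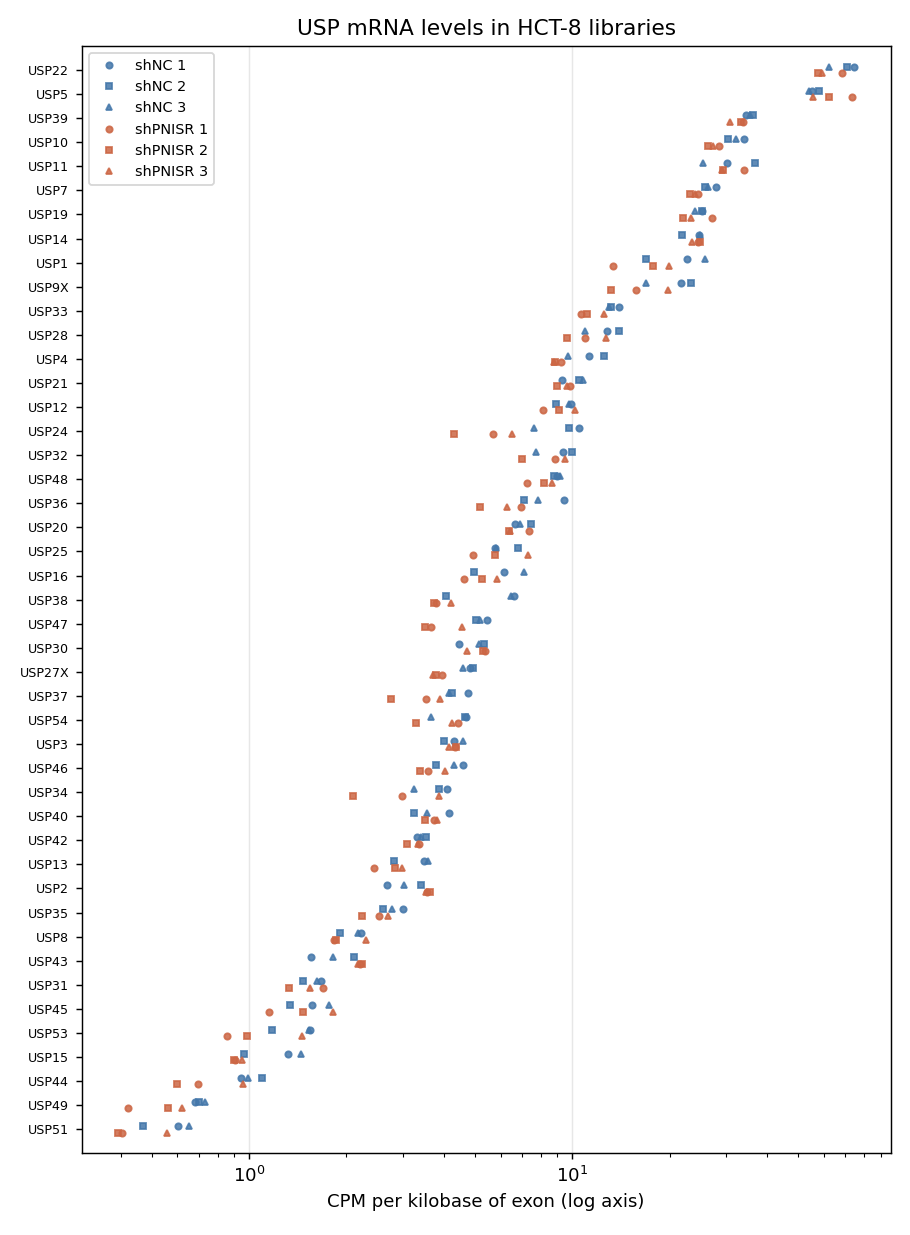
CPM per kilobase of exon (log axis) of the 45 retained USP genes, ordered by their shNC mean, with 1 point per library (blue shNC, orange shPNISR). USP22, USP5 and USP39 stand at the top and USP51 at the bottom, and most neighbours overlap.

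No gene lay near the count threshold. USP51 was the member just inside it, with counts of 48, 32 and 43 in shNC and 30, 28 and 40 in shPNISR. USP50 was just outside, with counts of 0, 2 and 2 in shNC and 3, 3 and 0 in shPNISR. USP6 and USP41 each had 1 count in 2 libraries, and USP26 and USP29 had 0 counts in all 6, where 3 counts would be 0.166 to 0.200 CPM. USP41 is a coding gene in the annotation used here and a pseudogene in RefSeq. The smallest count of any retained member was 28, so none passed through 1 group alone, and all 45 were tested.

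Most USP mRNAs had slightly lower values in shPNISR, but USP24 was the only member past the test. The median log2 fold change of the 45 was -0.16, beside -0.01 over all tested genes, and 39 had a fitted value below 0 (86.7%, beside 52.1% of all tested genes), or 37 with upper-quartile scaling. No member was called higher by edgeR's quasi-likelihood test, where 2.30% of all tested genes were, and 1 was called lower (2.22% of members), where 0.832% were and 3.14% were called in either direction. The other 44 did not pass. At an unadjusted p under 0.05, 10 members were lower (22.2%) and 0 higher, beside 7.79% lower and 9.98% higher over all tested genes. The 3 shPNISR values lay below all 3 shNC values in 13 members (28.9%, beside 9.58% of all tested genes) and above them in 2 (beside 11.5%, and 21.1% in either direction). These shares describe the list and were not tested. In bulk RNA, fewer cells of a kind and less RNA per cell cannot be told apart.

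**Figure D2:**
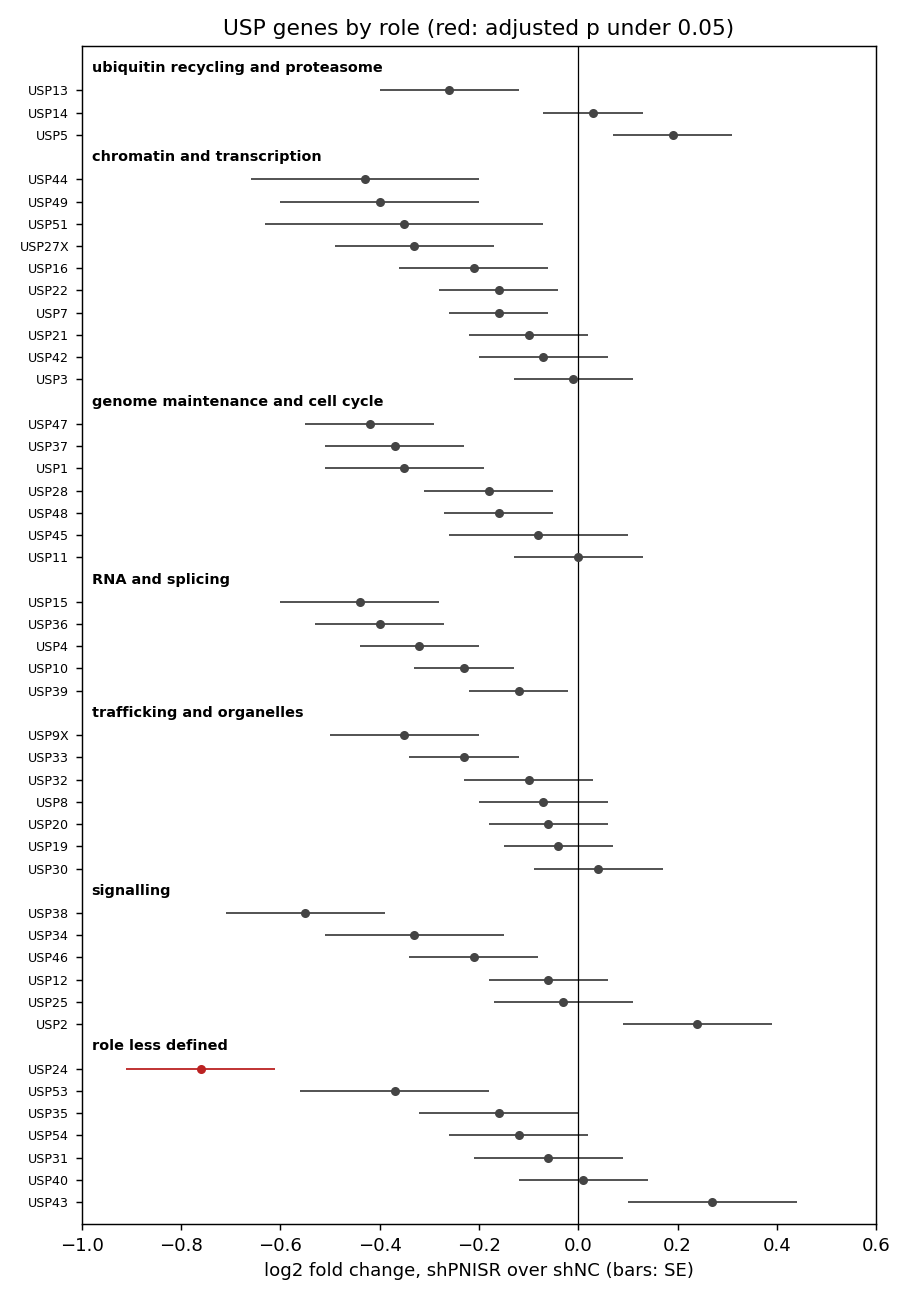
Log2 fold change of shPNISR over shNC (points) with its standard error (bars) for the 45 USP genes, grouped by role. Most points lie left of 0, with a family median of -0.16, and USP24, in red, is the only gene with an adjusted p under 0.05.

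USP24 had the largest decrease. It encodes a very large member of the family, whose reported substrates include p53. USP24 was at 124, 115 and 89.6 CPM in shNC and at 66.8, 50.8 and 76.5 CPM in shPNISR. All 3 shPNISR libraries lay below the lowest control, shNC 3. USP24 fell by 0.76 ± 0.15 (SE) on the log2 scale, to 59.0% of the shNC level (adjusted p = 0.0107, edgeR's quasi-likelihood test). USP24 (ENSG00000162402) is encoded by the minus strand, chromosome 1, from 55066359 to 55215113 (GRCh38), and shares no exon bases with another gene of the annotation. Its call held in 14 of 15 alternatives, among them without shNC 2 (-0.73, adjusted p = 0.0175), and ended without shPNISR 1 (-0.78, adjusted p = 0.0681).

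**Figure D3:**
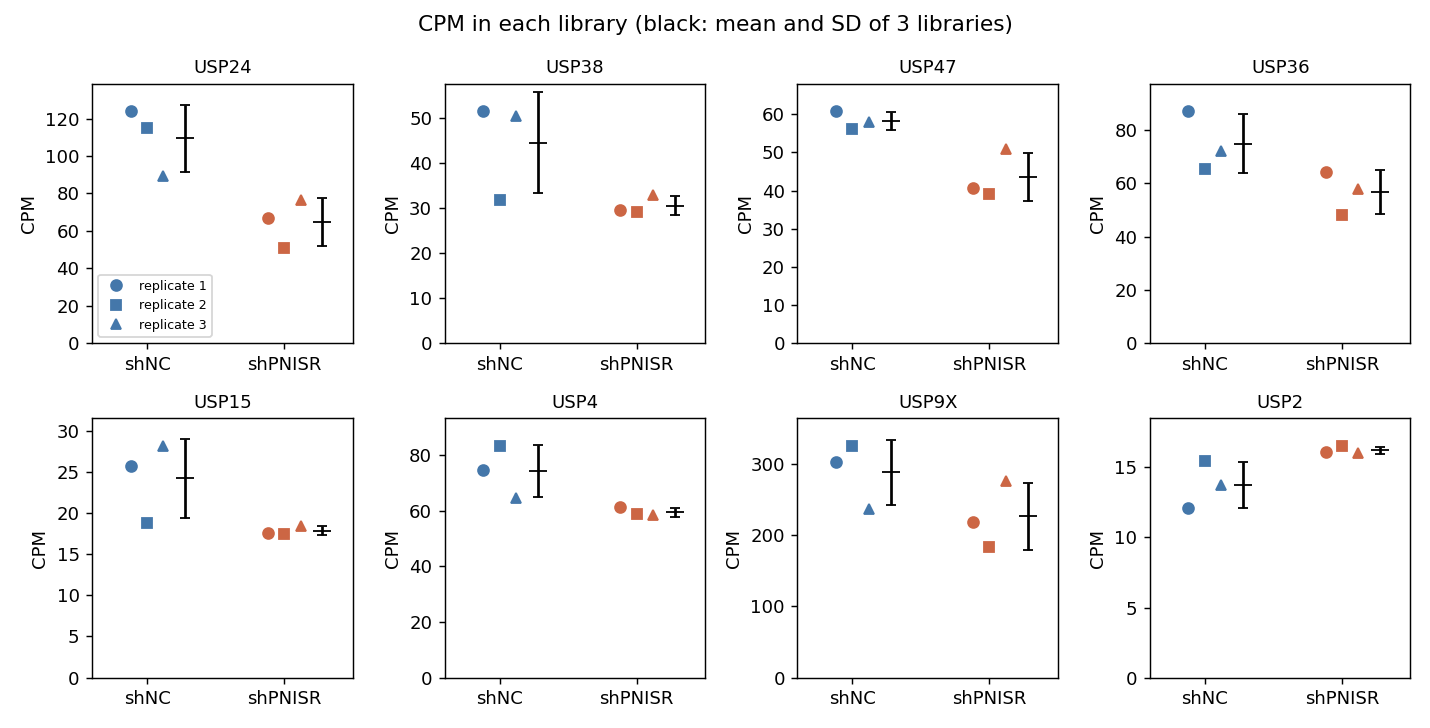
CPM in each library for 8 USP genes (marker shape gives the replicate number, black marks the mean and SD of 3 libraries). USP24 and USP47 are separated between the groups, while shNC 2 lies close to shPNISR for USP38 and USP15, and the groups overlap for USP9X.

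The 5 members listed here as acting on RNA and ribosomes had lower values in every shPNISR library. In all 5 of them, USP4, USP10, USP15, USP36 and USP39, the groups did not overlap, beside 9.58% of all tested genes lower without overlap and 21.1% in either direction. None passed the test. Their median log2 fold change was -0.32. The role groups were set with earlier results of these data known, so the separation of all 5 is a description and was not tested. USP11, a relative of USP4 and USP15 listed in another role group, had overlapping groups. USP15, which joins SART3 to act on the splicing protein PRPF31, was at 25.7, 18.8 and 28.1 CPM in shNC and 17.6, 17.4 and 18.5 CPM in shPNISR. The shNC 2 value lay just above the shPNISR range, and the log2 fold change was -0.44 ± 0.16 (adjusted p = 0.139). USP15 was called lower only when shNC 2 was left out (-0.60, adjusted p = 0.00659). It was at -0.19 (adjusted p = 0.541) once GC content and length were corrected for.

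USP36, a nucleolar enzyme of ribosome synthesis, was at 87.1, 65.3 and 72.3 CPM in shNC and 64.3, 47.9 and 57.8 CPM in shPNISR. Here too shNC 2 was the lowest control, close to shPNISR 1, and the log2 fold change was -0.40 ± 0.13 (adjusted p = 0.116). USP36 was called lower in 4 of 15 alternatives. Among them were the GC and length correction (-0.49, adjusted p = 0.0369) and the omission of shNC 2 (-0.50, adjusted p = 0.018). It was also called when weakly expressed genes were kept in the test (-0.41, adjusted p = 0.0399). By the same edgeR test USP36 was at -0.28 (adjusted p = 0.562) without shNC 1 and at -0.30 (adjusted p = 0.383) without shPNISR 2. USP4, the relative of USP15 that acts on the splicing protein PRPF3 together with SART3, was at 74.8, 83.3 and 64.7 CPM in shNC and 61.3, 58.8 and 58.3 CPM in shPNISR. For this gene shNC 2 was the highest control, and the log2 fold change was -0.32 ± 0.12 (adjusted p = 0.159). USP10, which binds the stress granule protein G3BP1 and rescues ribosomal proteins, was at 172, 154 and 163 CPM in shNC and 145, 134 and 139 CPM in shPNISR (-0.23 ± 0.10, adjusted p = 0.25). USP39, a tri-snRNP protein that lacks protease activity, was at 137, 143 and 140 CPM in shNC and 134, 132 and 122 CPM in shPNISR (-0.12 ± 0.10, adjusted p = 0.581). Its value was the nearest to 0 of the 5, and SART3 itself was at -0.02 (adjusted p = 0.93).

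RefSeq promoter windows (build GRCh38.p14) held 48 starts for 36 of the members; USP24 has no entry in that table. The 250 bases before the start are shown for 3 members whose groups did not overlap, USP4 and USP10 with lower and USP2 with higher values in shPNISR. They were chosen after their values were seen, and because no more than 22 bases of each window are annotated exon. Capitals mark, on either strand, the GC box GGGCGG and the ETS core CCGGAA. The windows are chr3:49340054-49340303 (minus strand) for USP4, chr16:84699750-84699999 (plus strand) for USP10 and chr11:119364209-119364458 (minus strand) for USP2. The USP2 window lies well inside its gene, which spans 119355215 to 119381726, and so precedes an internal start. The USP4 window also lies within the gene span, near its end at 49340712. Which starts gave the whole-gene counts was not examined.
USP4: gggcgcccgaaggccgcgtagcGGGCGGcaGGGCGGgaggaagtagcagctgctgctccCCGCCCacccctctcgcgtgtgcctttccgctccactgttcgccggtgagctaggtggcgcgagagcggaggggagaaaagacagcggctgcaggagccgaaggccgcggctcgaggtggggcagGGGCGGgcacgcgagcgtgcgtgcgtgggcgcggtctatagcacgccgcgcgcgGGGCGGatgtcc
USP10: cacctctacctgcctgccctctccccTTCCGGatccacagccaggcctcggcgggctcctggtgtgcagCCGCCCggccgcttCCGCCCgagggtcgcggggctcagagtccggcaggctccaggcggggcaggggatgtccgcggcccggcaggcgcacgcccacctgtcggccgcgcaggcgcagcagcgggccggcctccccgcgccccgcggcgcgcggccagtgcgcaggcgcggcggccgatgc
USP2: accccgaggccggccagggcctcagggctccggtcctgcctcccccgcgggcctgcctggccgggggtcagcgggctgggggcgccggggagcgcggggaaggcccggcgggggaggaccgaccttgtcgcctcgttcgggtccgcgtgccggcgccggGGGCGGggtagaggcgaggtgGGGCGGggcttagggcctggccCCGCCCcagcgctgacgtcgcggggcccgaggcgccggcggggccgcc
USP4 had 5 GC boxes, USP10 had 2 GC boxes and 1 ETS core, and USP2 had 3 GC boxes. Of the 48 member windows, 35 held a GC box (72.9%, beside 42.6% of the 35116 windows of all genes) and 11 an ETS core (22.9%, beside 14.5%), searched on both strands. The windows of all genes were not limited to genes expressed here, as those of the members were, so these shares compare unlike sets. The CCAAT box (CCAAT) was in 12 of the 48 member windows and in 32.0% of all. The CRE TGACGTCA was in 0 member windows and in 1.65% of all. None of these motifs contains another, though matches of different motifs may overlap. Median GC content was 69.2% in member windows and 58.0% in all.

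Members of genome maintenance and the cell cycle included several of the lower values. None of the 7 tested passed, all 7 had a fitted value below 0 (USP11 at 0.02 with upper-quartile scaling), beside 52.1% of all tested genes. In 3 of the 7 the groups did not overlap, all lower, beside 9.58% of all tested genes lower and 21.1% in either direction. USP47, a relative of USP7 that acts on DNA polymerase beta in base excision repair, was at 60.8, 56.1 and 57.9 CPM in shNC and 40.7, 39.2 and 50.8 CPM in shPNISR. The groups did not overlap, and the log2 fold change was -0.42 ± 0.13 (adjusted p = 0.0773). USP47 was called lower in 4 of 15 alternatives. Among them were DESeq2 (adjusted p = 0.0486), the omission of shNC 2 (-0.45, adjusted p = 0.0268) and keeping weakly expressed genes (-0.43, adjusted p = 0.0384). Without shNC 1 USP47 was at -0.39 (adjusted p = 0.307, edgeR's quasi-likelihood test). USP37, which stabilises cyclin A, was at 44.1, 39.3 and 38.6 CPM in shNC and 32.7, 25.6 and 36.2 CPM in shPNISR (-0.37 ± 0.14, adjusted p = 0.166). It shares 32.8% of its exon length with VIL1 on the opposite strand, and no source used here tells whether reads were counted by strand, so part of its counts may be those of VIL1.

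USP1, which with WDR48 removes ubiquitin from PCNA and FANCD2, was at 96.3, 72.1 and 110.0 CPM in shNC and 57.0, 75.8 and 84.99 CPM in shPNISR. The low control was again shNC 2, which lay inside the shPNISR range. USP1 was at -0.35 ± 0.16 with all libraries (adjusted p = 0.271). It was called lower in 2 of 15 alternatives, among them the omission of shNC 2 (-0.51, adjusted p = 0.0291). USP48 (-0.16 ± 0.11) had groups that did not overlap, while those of USP28 (-0.18 ± 0.13), which counters the ligase subunit FBXW7, did. USP11, a relative of USP4 linked to DNA repair, was at 159, 194 and 133 CPM in shNC and 179, 154 and 153 CPM in shPNISR, with no visible shift. USP45, a deubiquitinase of the repair nuclease subunit ERCC1, lies next to PNISR on chromosome 6, 7.05 kb from it and on the same strand. It was at 12.6, 10.8 and 14.3 CPM in shNC and 9.30, 11.8 and 14.6 CPM in shPNISR, with overlapping groups (-0.08 ± 0.18, adjusted p = 0.866).

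All 10 members of chromatin and transcription were tested, all had a fitted value below 0 (USP3 at 0.02 with upper-quartile scaling), beside 52.1% of all tested genes, and none passed. USP7, which acts on p53 and its ligase MDM2, was at 221, 205 and 210 CPM in shNC and 195, 184 and 191 CPM in shPNISR. Its groups did not overlap, but the difference was small (-0.16 ± 0.10, adjusted p = 0.437). USP22 was at 506, 480.4 and 423 CPM in shNC and 464, 392 and 404 CPM in shPNISR (-0.16 ± 0.12, adjusted p = 0.493), with overlapping groups. Its relatives USP27X, at 12.6, 12.9 and 11.99 CPM in shNC and 10.4, 9.92 and 9.69 CPM in shPNISR, and USP51 had log2 fold changes of -0.33 ± 0.16 and -0.35 ± 0.28. The histone H2B enzymes USP44 (-0.43 ± 0.23) and USP49 (-0.40 ± 0.20) were weakly expressed; USP49 was at 7.45, 7.64 and 7.99 CPM in shNC and 4.62, 6.14 and 6.75 CPM in shPNISR, with no overlap. The histone H2A enzymes USP16 (-0.21 ± 0.15), USP21 (-0.10 ± 0.12) and USP3 (-0.01 ± 0.12) had overlapping groups, as had USP42 (-0.07 ± 0.13). USP3 shares 22.7% of its exon length with its antisense gene.

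Of the 7 tested members of trafficking and organelles, none passed and 6 had a fitted value below 0. USP9X, a large X-linked enzyme with many substrates, was at 302, 325 and 237 CPM in shNC and 219, 184 and 276 CPM in shPNISR. Its groups overlapped through shNC 3 and shPNISR 3 (-0.35 ± 0.15, adjusted p = 0.232). USP9X was called lower only without shNC 3 (-0.47, adjusted p = 0.0353). USP33, a deubiquitinase that binds the VHL protein, was at 96.4, 91.3 and 89.6 CPM in shNC and 73.4, 77.0 and 86.5 CPM in shPNISR, with no overlap (-0.23 ± 0.11, adjusted p = 0.288). Its close relative USP20 was at -0.06 ± 0.12. The others lay near 0: the endosomal enzyme USP8 (-0.07 ± 0.13), which acts on receptor sorting, USP32 (-0.10 ± 0.13), USP19 (-0.04 ± 0.11), which is anchored in the endoplasmic reticulum, and USP30 (0.04 ± 0.13) of the mitochondrial outer membrane, which opposes Parkin.

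Among 6 signalling members none passed and 5 had a fitted value below 0. USP38 had the largest difference after USP24, at 51.5, 31.7 and 50.5 CPM in shNC and 29.5, 29.1 and 32.9 CPM in shPNISR. The shNC 2 library lay inside the shPNISR range, so the groups overlapped, and the log2 fold change was -0.55 ± 0.16 (adjusted p = 0.0756). USP38 was called lower in 4 of 15 alternatives. Among them were the omission of shNC 2 (-0.74, adjusted p = 0.000429), DESeq2 (adjusted p = 0.044) and keeping weakly expressed genes (adjusted p = 0.00461). By edgeR's quasi-likelihood test USP38 was at -0.43 (adjusted p = 0.345) without shNC 1 and at -0.52 (adjusted p = 0.288) without shPNISR 1. USP34, which stabilises axin in Wnt signalling, was at 74.2, 70.0 and 58.8 CPM in shNC and 54.0, 37.9 and 70.1 CPM in shPNISR (-0.33 ± 0.18, adjusted p = 0.372). It shares exon bases with AHSA2P on the other strand. The WDR48 partners USP46 and USP12 were at -0.21 ± 0.13 and -0.06 ± 0.12, and USP25 at -0.03 ± 0.14. USP2, a regulator of cyclin D1, was 1 of 2 members with higher values in every shPNISR library, at 12.1, 15.4 and 13.7 CPM in shNC and 16.1, 16.5 and 16.0 CPM in shPNISR (0.24 ± 0.15, adjusted p = 0.436). The other was USP43, at 7.89, 10.7 and 9.19 CPM in shNC and 11.1, 11.3 and 11.04 CPM in shPNISR (0.27 ± 0.17, adjusted p = 0.434). Neither passed.

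The 3 members of ubiquitin recycling did not pass. USP5 was at 206, 217 and 202 CPM in shNC and 273, 233 and 208 CPM in shPNISR (0.19 ± 0.12, adjusted p = 0.4), and overlapped through shPNISR 3. Its close relative USP13 was at 29.3, 23.8 and 30.2 CPM in shNC and 20.5, 23.9 and 25.1 CPM in shPNISR (-0.26 ± 0.14, adjusted p = 0.358). USP14, which trims ubiquitin chains at the proteasome, was at 148, 131 and 149 CPM in shNC and 147, 149 and 141 CPM in shPNISR. Of members whose role is less defined, besides USP24 and USP43, USP53, a tight junction protein, was at -0.37 ± 0.19 and its relative USP54 at -0.12 ± 0.14. USP35, USP31 and USP40 were at -0.16 ± 0.16, -0.06 ± 0.15 and 0.01 ± 0.13. Differences between close relatives were not tested.

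Each library was next set against the mean of shNC 1 and shNC 3 on the scale log2(CPM + 0.5). The median departure of the 45 members was -0.23, -0.28 and -0.08 in shPNISR 1 to 3 and -0.02 in shNC 2. Over all tested genes it was within 0.01 of 0 in all 6 libraries, which the scaling of the libraries largely fixes in advance. Thus shNC 2 did not share the family's median departure, although it lay at or below the highest shPNISR value in 22 members. In 6 members shNC 2 lay between the shPNISR libraries and the 2 other controls. The lowest of all 6 values was in shPNISR 2 for 23 members, in shPNISR 1 for 11 and in shPNISR 3 for 3, and shPNISR 3 was the highest of its group in 25. These counts of members were not made over all tested genes, so they are no result about the family. Summed over the members, USP mRNA took 3558, 3452 and 3264 CPM in shNC and 3146, 2865 and 3162 CPM in shPNISR. The 5 members with the highest CPM made up 36.9 to 42.3% of each sum. The sums did not overlap between the groups, and since the members were chosen with results known they were not tested.

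**Figure D4:**
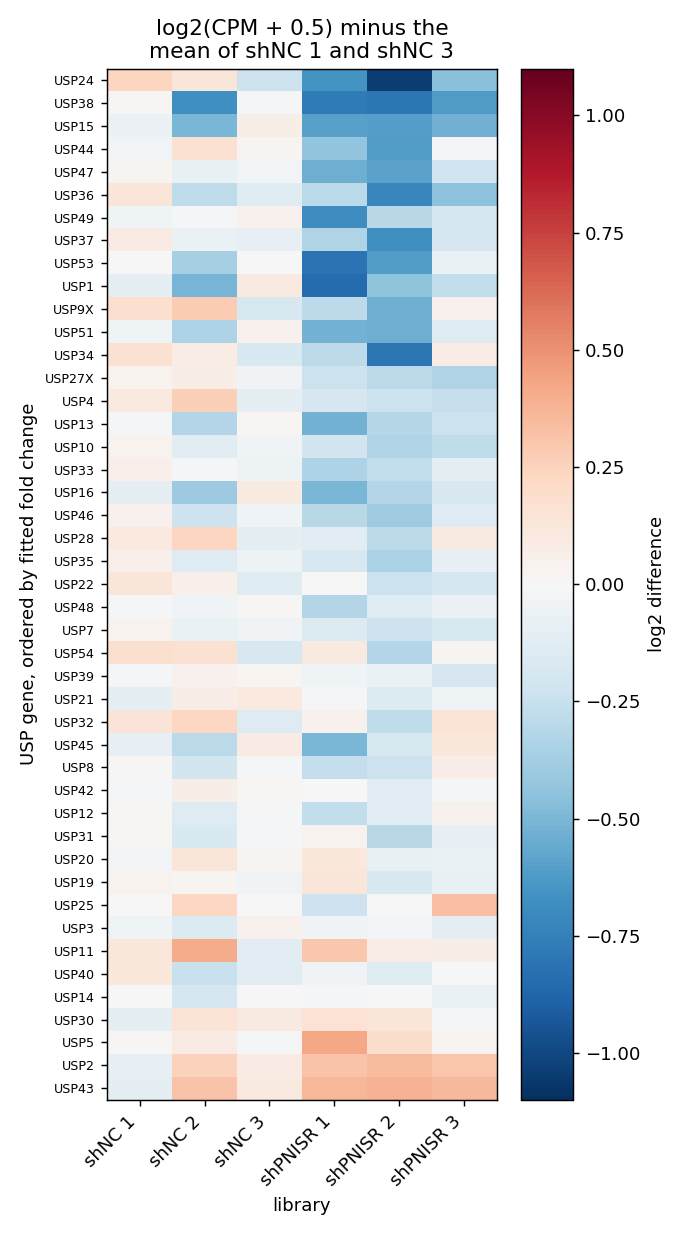
Difference of log2(CPM + 0.5) in each library (columns) from the mean of shNC 1 and shNC 3, for the 45 USP genes (rows) ordered by fitted fold change, blue lower and red higher. USP24 lies below the reference in the 3 shPNISR libraries and above it in shNC 2, whereas USP38, USP15 and USP1 are low in shNC 2 as well.

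Transcript composition moved with the fold changes. Across the 45 members the fold change was correlated with the GC content of the longest transcript (Spearman's rho 0.43, Pearson's r 0.46) and inversely with exon length (rho -0.35). The same held over the 15989 tested genes with both values (rho 0.39 and -0.22); these are correlations across genes of the same libraries, given as a description. The USP genes were longer (median 7.07 kb, beside 4.61 kb) and poorer in GC (median 45.3%, beside 49.0%). Under 42% GC the median log2 fold change was -0.34 in 18 members and -0.14 in 3648 genes. From 42 to under 50% GC it was -0.16 in 15 members and -0.06 in 4831 genes, and from 50% GC upwards it was -0.06 in 12 members and 0.10 in 7510 genes. In each band the members' median lay below that of all tested genes.

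**Figure D5:**
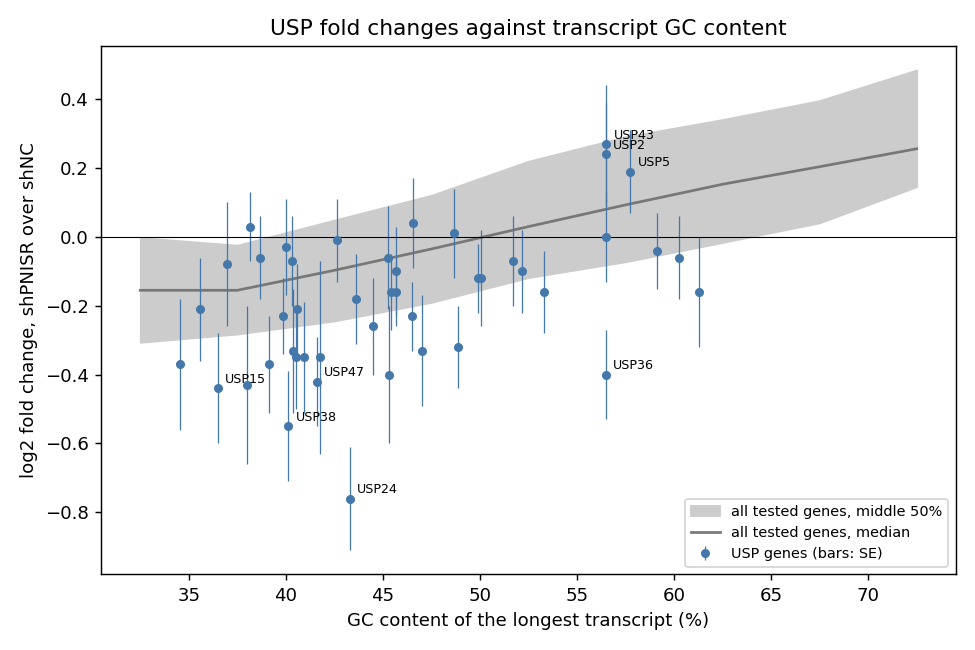
Log2 fold change of shPNISR over shNC against GC content of the longest transcript for the 45 USP genes (points, bars SE), with the median and middle 50% of all tested genes in GC bands (grey). Fold changes rise with GC content in both, and USP24, USP38 and USP36 lie furthest below the grey band.

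When each library was corrected for GC content and exon length, the members' median stayed at -0.16, and that of all tested genes was -0.03. A fitted value below 0 remained in 33 of 45 members, beside 39 before the correction. Over all 16102 tested genes it was found in 8926, beside 8390 before the correction. USP24 was at -0.65 (adjusted p = 0.0078) and USP36 at -0.49, and these 2 were called. USP38 was at -0.41 and USP47 at -0.29 (adjusted p = 0.138 and 0.113). The low-GC members USP8, USP12, USP25 and USP45 turned to 0.12, 0.06, 0.09 and 0.08, and USP3 and USP31 to 0.10 and 0.04.

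Outside the symbol rule, 52 of 53 further genes of the pathway were tested. None was called higher and 2 were called lower (3.85%), against 0.832% called lower of all tested genes. Both are on the list of deubiquitinases and related genes with other symbols, of which 35 were tested. A fitted value below 0 was found in 27 of these (77.1%, beside 52.1% of all tested genes), with a median of -0.12. STAMBP, a metalloprotease that cuts ubiquitin chains on endosomes, was at 78.6, 83.9 and 75.5 CPM in shNC and 58.6, 53.3 and 54.2 CPM in shPNISR. The groups were well apart, and STAMBP fell by 0.52 ± 0.11 on the log2 scale (adjusted p = 0.0141, edgeR's quasi-likelihood test), a call that ended without shNC 1 or any 1 shPNISR library (adjusted p 0.0559 to 0.0613). CYLD, which has the USP fold and restrains NF-kB signalling, was at 35.6, 32.4 and 35.9 CPM in shNC and 23.9, 24.1 and 25.1 CPM in shPNISR. CYLD fell by 0.51 ± 0.13 (adjusted p = 0.0341), and the call ended in 8 of 15 alternatives, among them the GC and length correction (-0.33, adjusted p = 0.12).

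Of the 11 partners of USP enzymes none passed and all 11 had a fitted value below 0 (median -0.14), beside 52.1% of all tested genes. Some of these values were close to 0, such as SART3 and ATXN7L3 at -0.02 and STAM at -0.03. The largest difference was that of ATXN7, a SAGA subunit of the module that holds USP22, at 30.8, 29.8 and 28.4 CPM in shNC and 24.8, 18.7 and 27.0 CPM in shPNISR. Its groups did not overlap (-0.33 ± 0.15, adjusted p = 0.235), and it was the 1 partner with an unadjusted p under 0.05. WDR48, the activator of USP1, USP12 and USP46, had a log2 fold change of -0.15 ± 0.11 with overlapping groups. GMPS, which binds USP7, was at 170.4, 169 and 169 CPM in shNC and 154, 159 and 141 CPM in shPNISR, with no overlap (-0.16 ± 0.10). The 6 genes of ubiquitin and its activation did not pass either, with a median of 0.05 and values from -0.17 to 0.11, among them the activating enzyme UBA1 at -0.13 ± 0.12.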

How the data were processed

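Libraries of HCT-8 RNA, 3 per group, were analysed from read counts per gene as deposited, which the authors had not normalized; HISAT2 2.0.4 and GRCh38 are named per the submitters' processing notes. How reads were assigned to genes, with which annotation and whether by strand, is not given in the sources used, so antisense and overlapping genes cannot be separated. The members, lists, role groups and tests were chosen with earlier results of these data known. Symbols came from a table of gene IDs (60463 of 60664 matched), and positions, gene types, exon lengths and GC content from GENCODE release 29, which held 99.3% of tested genes. Genes were filtered with filterByExpr (minimum count 10, minimum total 15), scaled by TMM and tested in edgeR 4.0.16 (R 4.3.3) with robust quasi-likelihood fits. Two-sided p-values were adjusted by Benjamini-Hochberg over all 16102 genes, with a threshold of 0.05. Standard errors came from fold change and test statistic. Alternatives were 3 other scalings, no filter, DESeq2 1.42.0, limma 3.58.1 voom, the replicate number as a block, a loess correction for GC content and length (span 0.4), and leaving out each library. That correction without shNC 2 was added after seeing the data. The rule for named genes took PNISR, members past the test, the 3 smallest p of each role group, sets of close relatives, the 5 highest and 5 lowest levels, the members beside the count threshold and called pathway genes. Other members and pathway genes are named to account for their lists, chosen after their values were seen. In data simulated for shPNISR against shNC (15855 genes), the test recovered 82 of 100 genes at 2-fold and 38 of 100 at 1.5-fold, with 13 false calls. The simulated libraries held no control set apart like shNC 2 and no shift with GC content, so recovery in the real data may differ. Figures used matplotlib 3.10.9.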

Additional observations from a re-analysis of the deposited data

How the results depend on the processing

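The number of USP members called, all of them lower, was 1 with all libraries and with DESeq2 size factors, upper-quartile factors, library totals, the replicate block and limma voom. It was 2 with the GC content and length correction (beside 487 of all tested genes), 3 with DESeq2 (beside 706) and 4 with no low-count filter (beside 996). On leaving out each library in turn it was from 0 to 6, the 6 being without shNC 2 (beside 2030). With that correction and without shNC 2 it was 6 (beside 2505). Without shNC 2 the calls over all genes thus rose as well, so the 6 are no result about the family. USP24 was among those called in each of these but the omission of shPNISR 1. USP15 was called only without shNC 2, USP9X only without shNC 3, and USP35 only under the added combination (-0.43, adjusted p = 0.0318). Over all tested genes 505 were called, 996 with no low-count filter, 163 to 2030 on leaving out each library in turn (2030 without shNC 2) and 2505 with the correction and without shNC 2. The correction alone gave 298 higher and 189 lower genes, and the added combination 1167 and 1338. Of the other pathway genes 2 were called, 1 with library totals, the replicate block and the GC correction each, 0 to 6 on leaving out each library and 6 under the added combination. CYLD had an adjusted p of 0.0543 with library totals and 0.058 with the replicate block, and without shNC 1, shNC 3, shPNISR 1, 2 or 3 it was 0.169, 0.0782, 0.173, 0.107 and 0.0694. PNISR kept its call throughout, from -1.15 to -1.52.

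The replicate numbers did not pair the libraries: the correlation of deviations from the group means was 0.119, -0.081 and -0.15 for equal numbers. With the replicate block 508 genes were called, 438 of them shared with the 505, and USP24 was at -0.77 (adjusted p = 0.00994). Values near 0 changed sign, none of them called. On leaving out each library in turn USP32 ranged from -0.20 to 0.01, USP45 from -0.25 to 0.08, USP12 from -0.15 to 0.02, USP31 from -0.14 to 0.02, USP19 from -0.13 to 0.01, USP25 from -0.20 to 0.10, USP3 from -0.06 to 0.04, USP11 from -0.12 to 0.14, USP40 from -0.07 to 0.12, USP14 from -0.03 to 0.06 and USP30 from -0.04 to 0.09. With the GC and length correction USP45 was at 0.08, USP8 at 0.12, USP12 at 0.06, USP31 at 0.04, USP25 at 0.09 and USP3 at 0.10. With shNC 2 also left out USP32 and USP45 were at 0.02, USP8, USP12 and USP3 at 0.05, USP25 at 0.19 and USP40 at -0.07. USP3 and USP11 were at 0.02 with upper-quartile factors, and USP11 at 0.01 with the replicate block and with limma voom. The cause of these shifts was not tested. In the simulated data, made with 3 libraries per group, 38 of 100 genes changed 1.5-fold were recovered. Those data held no control like shNC 2 and no shift with GC content.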
